A study of Mus musculus with 51 samples.

Results

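The 10 genes described here encode 3 secreted products of genes controlled by the YAP and TAZ co-activators (Ccn1, Ccn2 and Thbs1), the focal adhesion proteins Zyx, Vcl, Pxn, Tln1 and Actn1, the actin-filament protein Tpm1, and the caveolar coat protein Cav1. They were chosen by gene symbol, with Ccn1 and Ccn2 also looked for under their older symbols Cyr61 and Ctgf, and each was read from its probe with the highest mean intensity over all arrays. All 10 were found among the 16593 genes with a named probe on the Illumina mouse bead arrays. Ccn1 and Pxn had 3 probes each and the other 8 genes had 1.

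YAP and its paralog TAZ (encoded by Wwtr1) enter the nucleus when cells spread on a stiff substrate and build contractile actin, and there they activate genes through the TEAD transcription factors. The kinases of the Hippo pathway hold both co-activators in the cytoplasm. Focal adhesions join the extracellular matrix to the actin cytoskeleton: talin binds the tails of integrins, vinculin and paxillin are recruited to it, and alpha-actinin and zyxin link the plaque to stress fibres. Fibroblasts are rich in these structures, and many of their genes are also activated by serum response factor (SRF), which reads the state of actin.

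The study followed mouse fibroblasts carrying rtTA, the doxycycline-controlled activator, while c-Myc, Oct4, Sox2 and Klf4 were switched on with doxycycline, and it measured RNA on 51 arrays in 17 groups. The fibroblast group held 2 arrays, the parental embryonic fibroblasts of the rtTA mouse strain taken from the embryo and the secondary fibroblasts before induction (day 0 of the secondary course). Clonal lines kept in doxycycline were arrayed at day 16, 6 of them named F-class and 22 named C-class, with 1 array a clone, and F-class clone 1 was arrayed again at day 30. The secondary course had 1 array each at days 2, 5, 8, 11, 16 and 18 of doxycycline. The 2 iPSC arrays were doxycycline-independent lines, iPSC 1 from secondary and iPSC 2 from primary reprogramming, and 2 arrays held embryonic stem cells (ESC). Lines called Tet-Myc were arrayed with doxycycline and 48 h after its removal (lines 1 and 2 in each state). F-class cells under a histone deacetylase inhibitor (HDACi) were arrayed at 0, 24 and 48 h, 2 arrays a time. The labels do not state how clones were put in a class or which inhibitor was added. The clones, the Tet-Myc lines and the 2 kinds of fibroblast are distinct sources, so spread within those groups includes differences between them. Both iPSC arrays, the secondary fibroblasts and the secondary course share the label 1B in their titles. The 2 iPSC arrays may therefore not be independent of each other or of the secondary fibroblasts. For the ESC and HDACi arrays nothing says that they are separate cultures, and their spread may be technical.

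Detection (a detection p-value under 0.05) was even, at 46.6% to 53.4% of the probes on an array. The fibroblast marker list (10 genes, Col1a1 and Pdgfra among them) averaged 11.76 to 12.13 on the log2 scale in fibroblasts, 6.26 to 6.97 in the F-class and 6.38 to 7.71 in the C-class clones, so the labelled fibroblasts carried their markers. Lum was detected on no F- or C-class array, nor Pdgfra and Pdgfrb on any F-class array. The epithelial list (6 of its 7 genes had a probe) ran from 6.69 to 10.10 in the F-class and from 9.71 to 11.83 in the C-class. The pluripotency list ran from 7.71 to 9.43 in the F-class, from 6.26 to 11.20 in the C-class, and from 11.62 to 12.61 on the iPSC and ESC arrays. The smooth muscle list (5 genes, Cnn1 never detected on these arrays) ran from 9.72 to 9.77 in fibroblasts, 7.73 to 8.36 in the F-class and 7.57 to 8.50 in the C-class, and the endothelial list stayed between 5.17 and 6.36 in all 3. ESC 1 stood apart from ESC 2: its fibroblast list averaged 9.70 against 7.40 and its macrophage list (5 of 7 genes with a probe, Ptprc and Fcer1g never detected there) 8.44 against 6.11. Results on ESC are therefore given with and without each array. In bulk RNA, fewer cells of a type and less RNA per cell cannot be told apart.

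All 10 genes were detected on most of the 51 arrays, and 7 of them on all. Tln1 was detected on 41 arrays, 1 of 6 F-class and 19 of 22 C-class among them, so its F-class values lie at the edge of what the arrays measured. Thbs1 was missed on the 2 Tet-Myc arrays with doxycycline and Cav1 on the 2 HDACi arrays at 48 h. No member's probe was saturated: the highest intensity of any of them was 35874.8.

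RefSeq windows of 250 bases upstream of the start (build GRCm38.p6) were available for 7 of the 10 genes, and Ccn2, Thbs1 and Pxn had none. Cav1 had 2 windows, neither with a match, and each of the other genes had 1. The windows were searched on both strands for GGAATG, the core read by TEAD factors, and for the CArG box read by SRF. These motifs were chosen because YAP and SRF are the regulators these genes are best known for. GGAATG was found in 3 windows, those of Ccn1 (as CATTCC), Vcl (143 bases upstream of the start) and Tpm1 (56 bases upstream). The CArG box was found in the window of Vcl, 227 bases upstream. Among all 32851 mouse windows of this length, 12.6% held GGAATG and 1.47% the CArG box. The 3 windows with a match are shown 5′ to 3′ on the strand of the gene, with the matches in capitals: Ccn1 at chr3:145649986-145650235 (minus strand), Vcl at chr14:20929148-20929397 (plus strand) and Tpm1 at chr9:67049214-67049463 (minus strand). A match describes these letters and not a site in use.
Ccn1: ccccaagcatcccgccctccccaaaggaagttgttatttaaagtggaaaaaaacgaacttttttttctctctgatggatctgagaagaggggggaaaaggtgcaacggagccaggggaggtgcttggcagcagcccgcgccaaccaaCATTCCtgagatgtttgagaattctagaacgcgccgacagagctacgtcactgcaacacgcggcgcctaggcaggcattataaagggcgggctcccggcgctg
Vcl: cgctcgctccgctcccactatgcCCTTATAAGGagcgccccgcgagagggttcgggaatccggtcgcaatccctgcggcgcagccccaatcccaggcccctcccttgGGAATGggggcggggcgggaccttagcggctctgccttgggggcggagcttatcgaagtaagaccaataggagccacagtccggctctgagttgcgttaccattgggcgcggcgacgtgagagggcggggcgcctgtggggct
Tpm1: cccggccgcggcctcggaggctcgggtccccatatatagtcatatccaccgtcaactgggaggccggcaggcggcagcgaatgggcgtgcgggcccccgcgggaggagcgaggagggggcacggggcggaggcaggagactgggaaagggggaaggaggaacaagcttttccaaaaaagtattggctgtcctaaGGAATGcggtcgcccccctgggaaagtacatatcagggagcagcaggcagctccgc

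**Figure D1:**
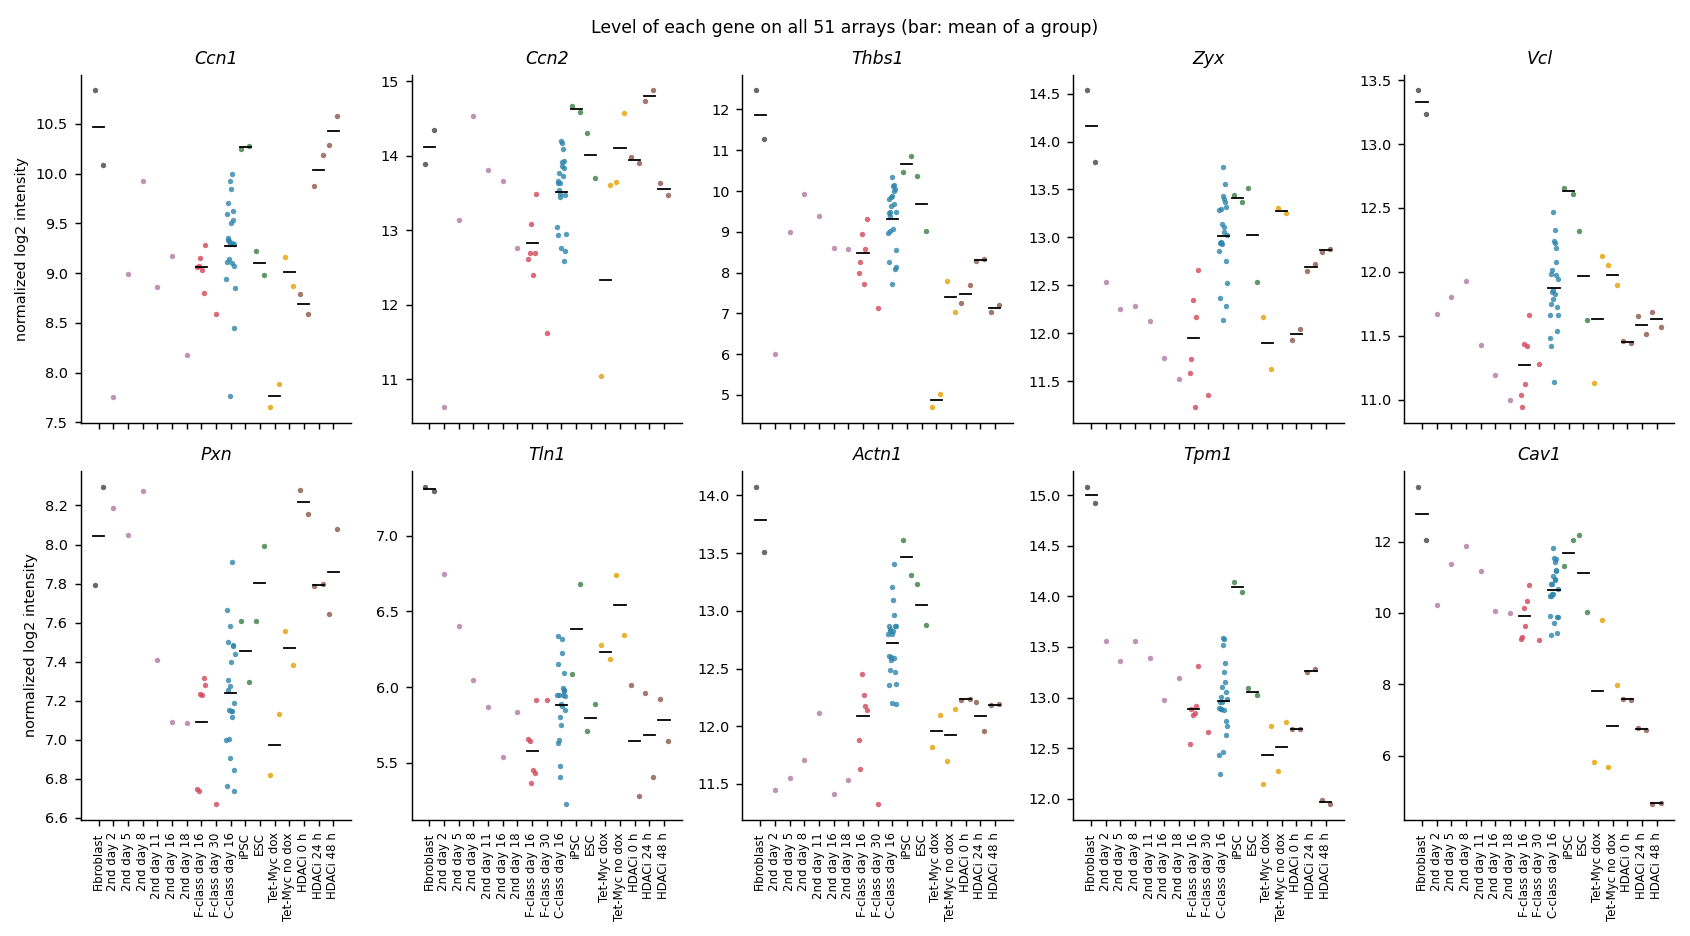
Normalized log2 level of each of the 10 genes on every one of the 51 arrays, by group (1 point an array, bar = group mean, 1 panel a gene). The fibroblast arrays lie above all F-class clones in every panel, and the C-class clones spread over a wide band that takes in much of the F-class range.

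The first comparison asked how far the day-16 clones had moved from fibroblasts. All 10 genes were lower in F-class clones than in fibroblasts, from 10.5-fold for Thbs1 to 1.94-fold for Pxn, and no F-class clone overlapped the fibroblasts for any of them. In 1 fit of 11046 genes, in which fibroblast, F-class, C-class, iPSC and ESC arrays share the estimate of spread (limma, Benjamini-Hochberg adjusted p under 0.05, two-sided, used for every call below), 27.2% of genes were called lower and 58.8% did not overlap. The members' median log2 difference was -1.89, against 0.10 over all genes. The C-class comparison shares the fibroblast arrays: 9 members were called lower there, against 28.5% of all genes, and the members' median was -1.31 against 0.09. Its clones did not overlap the fibroblasts for 8 of the 10, as for 43.8% of all genes, Ccn2 and Pxn being the exceptions.

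Among the secreted products, Thbs1, a matrix glycoprotein that activates latent TGF-beta, showed the widest gap. Its log2 level was 12.47 and 11.27 in the 2 fibroblast arrays, ran from 7.72 (median 8.42) to 9.32 in the 6 F-class clones and from 7.72 (median 9.48) to 10.33 in the 22 C-class clones. Both fibroblast arrays lay above every clone, and the 2 classes overlapped. The log2 difference from fibroblasts was -3.40 (SE 0.57, adjusted p = 5.97e-06) in the F-class and -2.54 (SE 0.52, adjusted p = 8.22e-05) in the C-class.

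Ccn1 and Ccn2 encode paired matricellular proteins that bind integrins and are the standard reporters of YAP activity. Ccn1 stood at 10.84 and 10.09 in fibroblasts, at 8.80 to 9.28 (median 9.07) in the F-class and at 7.76 to 9.99 (median 9.32) in the C-class. Every clone was below both fibroblast arrays, and the 6 F-class clones fell inside the C-class range. The Ccn1 difference from fibroblasts was -1.40 (SE 0.35, adjusted p = 0.000914) in the F-class and -1.19 (SE 0.32, adjusted p = 0.0016) in the C-class.

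Ccn2 was called lower than in fibroblasts in the F-class but not in the C-class. Whether it differed from the other members was not tested. It stood at 13.89 and 14.35 in fibroblasts, at 12.40 to 13.48 (median 12.69) in the F-class and at 12.59 to 14.20 (median 13.64) in the C-class. The F-class lay wholly below the fibroblasts, while some C-class clones reached the level of the parental fibroblasts. Its log2 difference from fibroblasts was -1.29 (SE 0.36, 2.45-fold, adjusted p = 0.00241) in the F-class and -0.60 (SE 0.32, adjusted p = 0.109) in the C-class, the one member not called there.

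The plaque proteins were lower in both classes. Zyx, the LIM protein that repairs strained stress fibres, stood at 14.53 and 13.79 in fibroblasts, at 11.23 to 12.66 (median 11.94) in the F-class and at 12.14 to 13.74 (median 13.04) in the C-class. Both fibroblast arrays were above every clone, the lower of them by little over the highest C-class clone. The difference from fibroblasts was -2.21 (SE 0.35, 4.62-fold, adjusted p = 2.72e-06) in the F-class and -1.14 (SE 0.32, adjusted p = 0.00267) in the C-class.

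Vcl (vinculin, which clamps talin to actin) stood at 13.42 and 13.23 in fibroblasts, at 10.94 to 11.66 (median 11.27) in the F-class and at 11.14 to 12.47 (median 11.85) in the C-class. Actn1 (alpha-actinin, the cross-linker of stress-fibre actin) stood at 14.08 and 13.51, at 11.63 to 12.46 (median 12.16) and at 12.19 to 13.41 (median 12.80) in the same 3 groups. For both genes the fibroblasts lay above every clone. The lowest C-class clone stood above 4 of the 6 F-class clones for Actn1 and 3 of the 6 for Vcl, and the other F-class clones fell inside the C-class range. Their differences from fibroblasts in the F-class were -2.06 for Vcl (SE 0.25, 4.16-fold, adjusted p = 1.94e-08) and -1.70 for Actn1 (SE 0.25, 3.25-fold, adjusted p = 4.86e-07). In the C-class they were -1.46 for Vcl (SE 0.23) and -1.07 for Actn1 (SE 0.22), both called.

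Tln1 (talin, the integrin activator) stood at 7.32 and 7.30 in fibroblasts, at 5.36 to 5.92 (median 5.55) in the F-class and at 5.23 to 6.34 (median 5.95) in the C-class. Pxn (paxillin, the plaque scaffold) stood at 7.79 and 8.30, at 6.74 to 7.31 (median 7.23) and at 6.74 to 7.91 (median 7.22). The fibroblasts cleared both classes for Tln1, whereas the highest C-class clone passed the lower fibroblast array for Pxn. Tln1 differed by -1.73 (SE 0.22, adjusted p = 2.93e-08) in the F-class and -1.43 (SE 0.19, adjusted p = 1.52e-07) in the C-class, and Pxn by -0.95 (SE 0.24, adjusted p = 0.000912) and -0.80 (SE 0.22, adjusted p = 0.00174).

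Tpm1 (tropomyosin, which coats actin filaments) stood at 15.08 and 14.92 in fibroblasts, at 12.54 to 13.31 (median 12.87) in the F-class and at 12.24 to 13.58 (median 12.96) in the C-class. Cav1, the principal caveolin, stood at 13.53 and 12.03, at 9.27 to 10.77 (median 9.89) and at 9.37 to 11.83 (median 10.73). The fibroblasts lay above every clone for both genes, by a wide margin for Tpm1 and by little for Cav1, whose 2 fibroblast arrays were themselves far apart. Tpm1 differed by -2.11 (SE 0.26, 4.33-fold, adjusted p = 2.01e-08) in the F-class and -2.03 (SE 0.23, 4.09-fold, adjusted p = 5.22e-09) in the C-class. Cav1 differed by -2.87 (SE 0.58, 7.29-fold, adjusted p = 7.73e-05) and -2.14 (SE 0.52, adjusted p = 0.000685).

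Some of these calls rest on 1 fibroblast array. Without the parental fibroblasts the F-class call for Ccn1 ended (-1.02, adjusted p = 0.058), as did the C-class calls for Ccn1 (-0.82, adjusted p = 0.11), Zyx (-0.77, adjusted p = 0.14) and Cav1 (-1.39, adjusted p = 0.096). Without the secondary fibroblasts the F-class calls for Ccn2 (-1.06, adjusted p = 0.071) and Pxn (-0.70, adjusted p = 0.067) and the C-class call for Pxn (-0.55, adjusted p = 0.13) ended. With either array left out, Thbs1, Vcl, Tln1, Actn1 and Tpm1 were called lower in both classes. The fibroblast marker list moved with all 10 genes, as given above, and its part in these differences was not tested.

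The second comparison set the 2 clone classes against each other. Zyx, Ccn2, Actn1 and Vcl were lower in the F-class, and all 10 genes had a negative log2 difference, with a median of -0.61 against 0.03 over all genes. These 4 of 10 members were called lower, against 10.6% of all genes tested, and none was called higher. No member separated the classes fully: ranges overlapped for all 10, while 2.06% of all genes did not overlap.

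Zyx had the largest difference of the 4 called. Its F-class values were 11.59, 11.73, 12.35, 11.23, 12.16 and 12.66 in clones 1, 2, 6, 7, 13 and 27, and clones 6, 13 and 27 lay within the C-class range while clones 1, 2 and 7 lay below it. The log2 difference was -1.07 (SE 0.20, 2.09-fold, adjusted p = 0.000197). Ccn2 differed by -0.69 (SE 0.20, 1.62-fold, adjusted p = 0.0113), Actn1 by -0.63 (SE 0.14, 1.54-fold, adjusted p = 0.00115) and Vcl by -0.60 (SE 0.14, 1.51-fold, adjusted p = 0.00203).

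The other members did not pass the threshold. Thbs1 differed by -0.85 (SE 0.32, adjusted p = 0.0507) and Cav1 by -0.72 (SE 0.33, adjusted p = 0.104), both with wide clone-to-clone spread. Tln1 differed by -0.31 (adjusted p = 0.0622), Ccn1 by -0.21 (adjusted p = 0.474), Pxn by -0.15 (adjusted p = 0.444) and Tpm1 by -0.08 (adjusted p = 0.728). The other 2 probes of Ccn1 gave larger differences, -0.55 and -0.40, neither tested on its own. Thbs1 was at the margin: it passed without F-class clone 6 (-0.95, adjusted p = 0.049) or clone 27 (-1.02, adjusted p = 0.03), and Tln1 passed without clone 27 (-0.37, adjusted p = 0.034). The deposited values came in number formats of 1 decimal or more, and all F- and C-class day-16 clones had 1 decimal. A term for number format therefore cannot test the difference between these classes and changes only the estimate of spread. With that term the 4 calls held and Thbs1 passed at an unchanged difference (-0.85, adjusted p = 0.04). Clone 27 had the highest level of 8 of the 10 members in the F-class and the highest fibroblast marker mean of that class, 6.97.

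**Figure D2:**
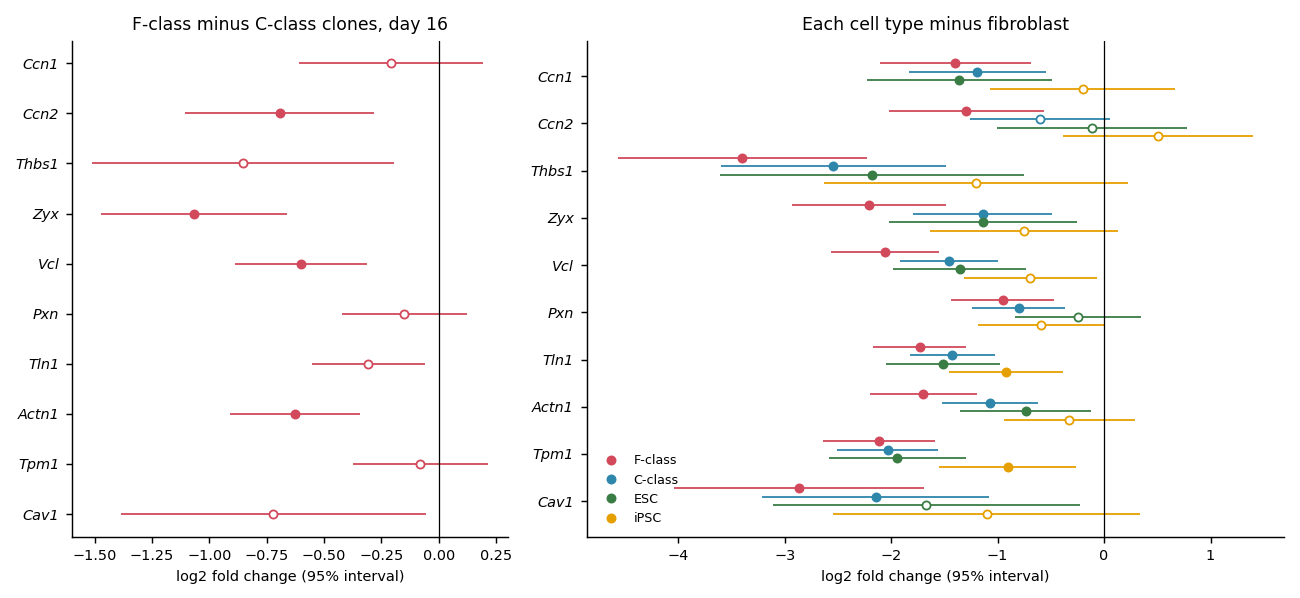
Log2 difference of each of the 10 genes. Left, F-class minus C-class clones with the 95% interval; right, F-class, C-class, ESC and iPSC each minus fibroblasts; filled points were called and open points were not. Zyx, Ccn2, Actn1 and Vcl are filled on the left, and all 10 F-class points are filled on the right.

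Against pluripotent cells, the F-class was again the lower side. The fibroblast marker mean was 8.85 and 8.86 on the iPSC arrays, with all 10 markers detected on each. It was 6.26 to 6.97 in the F-class and 6.38 to 7.71 in the C-class, and its part in these differences was not tested. Relative to the 2 iPSC arrays, 9 of 10 members were lower in the F-class, where 24.7% of all genes were called lower, and the members' median was -1.37 against 0.04. Thbs1 stood at 10.46 and 10.87 in iPSC, above all 6 F-class clones (-2.19, SE 0.57, 4.57-fold, adjusted p = 0.00184). Ccn2 stood at 14.66 and 14.59, also above all of them (-1.80, SE 0.36, 3.48-fold, adjusted p = 0.000103). Actn1, at 13.62 and 13.31 in iPSC, differed by -1.37 (SE 0.25, adjusted p = 2.74e-05) and Vcl, at 12.65 and 12.61, by -1.36 (SE 0.25, adjusted p = 3.72e-05). Pxn, at 7.61 and 7.30 in iPSC, was the exception (-0.36, adjusted p = 0.204). Without iPSC 2 the F-class calls for Tln1 (-0.51, adjusted p = 0.14) and Cav1 (-1.41, adjusted p = 0.14) ended.

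The C-class, compared with the same iPSC arrays, had 7 of 10 members called lower against 25.6% of all genes and a median of -0.88 against 0.03. Tpm1, at 14.15 and 14.05 in iPSC, had the lowest adjusted p (-1.13, adjusted p = 0.000166), and every C-class clone lay below both arrays. The calls for Ccn1 (-0.99), Ccn2 (-1.11), Thbs1 (-1.34), Vcl (-0.76), Tln1 (-0.50) and Actn1 (-0.75) each ended when one of the iPSC arrays was left out, so 2 calls were made without iPSC 1 and 3 without iPSC 2. Zyx, Pxn and Cav1 (-1.04) were not called. The other probes of Ccn1 disagreed here, at 0.17 and -1.03 for the C-class against iPSC. For the F-class against iPSC they gave -0.38 and -1.42. All day-16 clones were deposited in the 1-decimal number format and both iPSC arrays with more decimals, so format and group can be separated only through the ESC and fibroblast groups, which have an array of each. With format as a term, Cav1 was called lower in the C-class (-2.88, adjusted p = 0.013), and the calls for Ccn1 (-1.49, adjusted p = 0.0501), Ccn2 (-1.17, adjusted p = 0.148) and Tln1 (-0.43, adjusted p = 0.41) ended. The F-class call for Tln1 ended too (-0.73, adjusted p = 0.12). So did the calls for Tpm1 in iPSC against fibroblasts (-0.85, adjusted p = 0.059) and against ESC (1.09, adjusted p = 0.087), and for Pxn in the C-class against fibroblasts (-0.58, adjusted p = 0.053) and against ESC (-0.34, adjusted p = 0.32). Pxn then passed in iPSC against fibroblasts (-0.81, adjusted p = 0.042). Whether format marks a batch is not stated. Its term rests on the gap between the parental and secondary fibroblasts and that between ESC 1 and ESC 2. For Cav1 these read 13.53 against 12.03 and 12.19 against 10.03, and its value with the term carries those gaps. The iPSC and fibroblast groups themselves differed in Tln1 (-0.92, SE 0.26, adjusted p = 0.00463) and Tpm1 (-0.91, SE 0.32, adjusted p = 0.019), 2 of 10 members against 22.5% of all genes called lower. Neither call held without iPSC 1 (Tln1 -0.63, adjusted p = 0.12, and Tpm1 -0.96, adjusted p = 0.054). The Tpm1 call also ended without iPSC 2 (-0.86, adjusted p = 0.091) and without the parental fibroblasts (-0.83, adjusted p = 0.098).

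The 2 ESC arrays disagreed on several members, and ESC 1 was the higher in most. Cav1 read 12.19 in ESC 1 and 10.03 in ESC 2, Thbs1 10.36 and 9.02, Zyx 13.52 and 12.53, and Vcl 12.32 and 11.62, while Tpm1 (13.09 and 13.03) and Ccn1 (9.23 and 8.98) nearly matched. ESC 1 is the array with the higher fibroblast and macrophage lists given above, whose part in these values was not tested. Against fibroblasts, 7 members were called lower in ESC (23.8% of all genes), led by Tpm1 (-1.94, adjusted p = 5.85e-06). The count was 3 without ESC 2 or without the parental fibroblasts, and 8 without ESC 1 or without the secondary fibroblasts, which added Cav1 (-2.75, adjusted p = 0.0058, and -2.42, adjusted p = 0.022). Cav1 was at the threshold with every array kept (-1.67, adjusted p = 0.0504), and it passed under 5 other processing settings (-1.62 to -1.67, adjusted p from 0.03 to 0.048). Without ESC 2 the calls for Ccn1, Thbs1, Zyx and Actn1 ended, and without the parental fibroblasts the same 4 did.

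Against ESC, 5 members were lower in the F-class where 22.5% of all genes were called lower: Ccn2 (-1.18, SE 0.36, adjusted p = 0.00721), Zyx (-1.07, SE 0.35, adjusted p = 0.013), Actn1 (-0.96, SE 0.25, adjusted p = 0.00176), Pxn (-0.71, SE 0.24, adjusted p = 0.0143) and Vcl (-0.70, SE 0.25, adjusted p = 0.0211). Without ESC 1 the Pxn call alone was left, and the values were -0.88 for Ccn2, -0.58 for Zyx, -0.79 for Actn1 and -0.35 for Vcl. The Pxn call ended without ESC 2 (-0.52, adjusted p = 0.21), while Thbs1 (-1.89, adjusted p = 0.046) and Cav1 (-2.28, adjusted p = 0.013) passed without it, for 6 in all. Thbs1 also passed without F-class clone 27 (-1.39, adjusted p = 0.048). Ccn1 was not called in the F-class against ESC, and with every array kept its probes disagreed. The probe used gave -0.04 and the other 2 gave -0.51 and -0.55. With number format as a term and every array kept, Thbs1 (-1.86, adjusted p = 0.022) and Cav1 (-2.11, adjusted p = 0.0065, against -1.19 otherwise) passed and Pxn did not (-0.49, adjusted p = 0.154). The C-class differed from ESC in Pxn alone among the members (-0.56, SE 0.22, adjusted p = 0.0336, 22.3% of all genes called lower), which did not pass without ESC 2 (-0.37, adjusted p = 0.39). Between iPSC and ESC, Tpm1 was higher in iPSC (1.04, SE 0.32, 2.05-fold, adjusted p = 0.0375, 3.68% of all genes called higher), and that call ended without any one of the 4 arrays (0.99 to 1.09, adjusted p from 0.073 to 0.18).

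Within the C-class, 8 of the 9 other members passed a test of correlation with Ccn2 from clone to clone. Ccn2 was taken as the reference, and the correlation of each other member with it was computed over the 22 clones (9 correlations, two-sided permutation p with 100000 resamples, Benjamini-Hochberg adjusted over the 9). Pearson's r was 0.94 for Cav1 (Spearman's rho 0.92), 0.93 for Zyx (rho 0.95), 0.93 for Thbs1 (rho 0.88), 0.86 for Vcl (rho 0.87), 0.85 for Tpm1 (rho 0.85), 0.84 for Ccn1 (rho 0.86) and 0.83 for Actn1 (rho 0.82). Each of these 7 had a p of 1e-05, the smallest these resamples can give (adjusted p = 1.3e-05). Pxn was weaker (r = 0.52, rho 0.54, permutation p = 0.013, adjusted p = 0.015), and Tln1 did not pass (r = 0.28, rho 0.33, adjusted p = 0.21). Without clones 24 and 25, the farthest from the Ccn2 median, r was 0.94 for Cav1, 0.94 for Zyx and 0.90 for Thbs1. Over the same clones the median r of all 11045 other genes with Ccn2 was -0.05. An r as high as that of Cav1 was reached by 0.308% of them, as high as that of Actn1 by 1.35%, as high as that of Pxn by 6.28% and as high as that of Tln1 by 17.4%.

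The clones were not evenly spread, however: 6 had Ccn2 levels of 12.59 to 13.05 and 16 lay between 13.45 and 14.20, a split drawn after seeing the values. Within the 16 clones r was 0.88 for Zyx, 0.85 for Cav1, 0.81 for Vcl, 0.81 for Tpm1, 0.78 for Ccn1, 0.76 for Actn1, 0.69 for Thbs1, 0.62 for Pxn and 0.57 for Tln1, all 9 with adjusted p of at most 0.021. Within the 6 clones r ran from -0.43 (Tpm1) to 0.76 (Thbs1). Clone 15 was the highest in Ccn2 and Thbs1, and its fibroblast marker mean of 7.71 was the highest of the class. Clone 16 was the lowest in Ccn1 and Thbs1, with the lowest fibroblast marker mean, 6.38. The part of that list in the correlations was not tested.

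**Figure D3:**
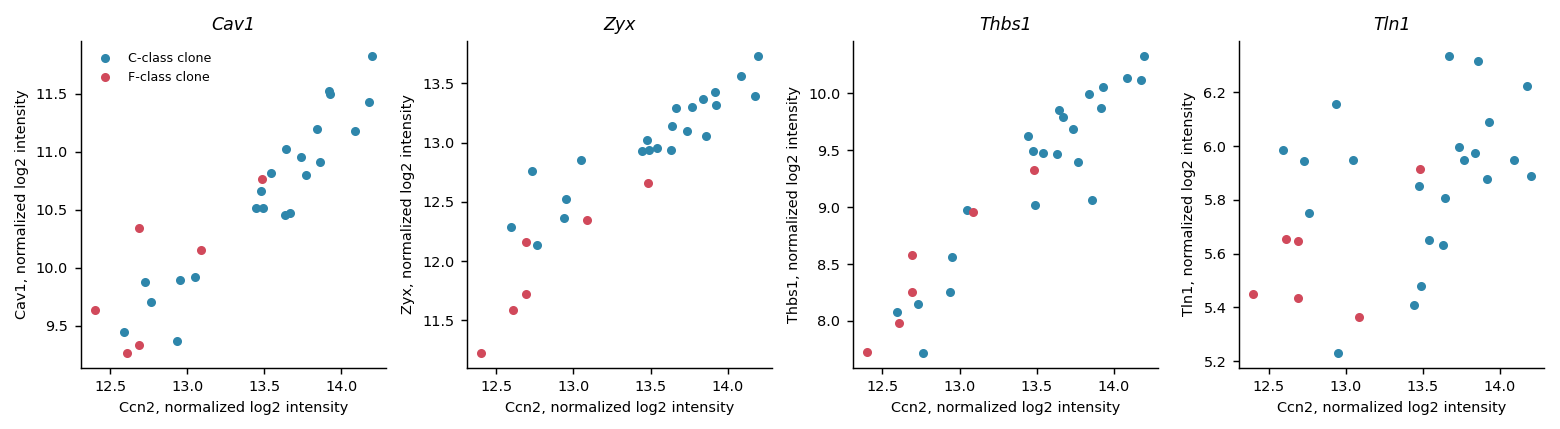
Levels of Cav1, Zyx, Thbs1 and Tln1 against the level of Ccn2 on the same array (both log2), for the 22 C-class clones (blue) and the 6 F-class clones (red). Cav1, Zyx and Thbs1 climb with Ccn2 over the C-class clones, and Tln1 shows little slope.

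Across all 51 arrays, which share groups and array-wide effects, the members' correlations are a description only. Zyx ran most closely with Vcl (r = 0.84) and Actn1 (r = 0.79), Thbs1 with Cav1 (r = 0.74), and Ccn1 with Ccn2 (r = 0.68). Thbs1 followed the mean of the other 9 members most closely (r = 0.87) and Pxn least (r = 0.25), and Pxn and Cav1 were unrelated (r = -0.04). The 5 genes outside the list whose levels ran closest to the members' mean over the 51 arrays, of 11551 compared, were Tnfrsf11b (r = 0.90), Loxl1 (0.89), Ch25h (0.89), Srpx2 (0.89) and Aebp1 (0.88).

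The secondary course showed when the genes fell, on 1 array a day and so with no test. At day 2 of doxycycline, 8 of 10 members were over 2-fold below day 0, against 14.6% of genes compared. The 3 secreted products fell furthest, and their later paths differed in shape from those of the actin-linked genes. The count was 7 at day 5 (15.8% of genes), 6 at day 8 (15.1%), 7 at day 11 (17.9%), 8 at day 16 (18%) and 10 at day 18 (19%). No member was over 2-fold above day 0 on any of the 6 days, where 14%, 15.4%, 15.1%, 17.3%, 18.9% and 19.6% of genes were.

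Thbs1 read 11.27 at day 0, then 6.00, 8.98, 9.94, 9.39, 8.61 and 8.58 at days 2, 5, 8, 11, 16 and 18. Ccn2 read 14.35 at day 0, then 10.62, 13.14, 14.54, 13.81, 13.66 and 12.77 on the same days. Both reached their lowest level at day 2, climbed to day 8 and declined again. The day-2 drop was 38.4-fold for Thbs1 and 13.3-fold for Ccn2, and the climb from day 2 to day 5 was 7.90-fold and 5.72-fold, where 5.87% of genes compared rose over 2-fold.

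Ccn1 read 10.09 at day 0, then 7.75, 8.99, 9.93, 8.87, 9.17 and 8.18. Cav1 read 12.03, then 10.23, 11.37, 11.87, 11.17, 10.05 and 10.01. At day 8 Ccn1 and Cav1 each had a log2 difference of -0.16 from day 0 and Ccn2 had a difference of 0.19, while that of Thbs1 was -1.33. These 4 were the members that rose over 2-fold from day 2 to day 5.

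The actin-linked genes stayed lower on these arrays. Actn1 read 13.51 at day 0, then 11.45, 11.55, 11.70, 12.12, 11.42 and 11.54, and Zyx 13.79, then 12.53, 12.25, 12.28, 12.13, 11.74 and 11.52. Vcl read 13.23, then 11.67, 11.80, 11.93, 11.43, 11.19 and 10.99, and Tpm1 14.92, then 13.56, 13.36, 13.56, 13.39, 12.98 and 13.20. All 4 were low from day 2 on, with Actn1 at its lowest on day 16 and Zyx and Vcl on day 18. Tln1 (7.30, then 6.75, 6.40, 6.05, 5.87, 5.54 and 5.84) declined over more days, and Pxn (8.30, then 8.19, 8.05, 8.28, 7.41, 7.09 and 7.09) stayed near its day-0 level to day 8. Day 16 and day 18 cells carry the F-class name, and at day 18 even Pxn was over 2-fold below day 0.

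The fibroblast marker mean fell along the same course, from 12.13 at day 0 to 9.70 at day 2 and through 9.40, 9.16, 7.96 and 7.30 to 7.32 at day 18. The epithelial mean, 5.16 at day 0, ran 6.83, 10.13, 10.92, 10.43, 9.33 and 7.69 on the same days, up to day 8 and then down. From day 2 on, Ccn2, Thbs1 and Cav1 also rose to day 8 and then fell. Ccn1 rose to day 8 too, but it read 8.87 at day 11 and 9.17 at day 16. The part of either list in the members' course was not tested. Between F-class clone 1 at day 16 and the same clone at day 30 no member changed over 2-fold, against 3.95% of genes compared. Ccn2 (12.61 and 11.62, a 1.99-fold drop) and Thbs1 (7.98 and 7.13) moved most, each on 1 array a day.

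**Figure D4:**
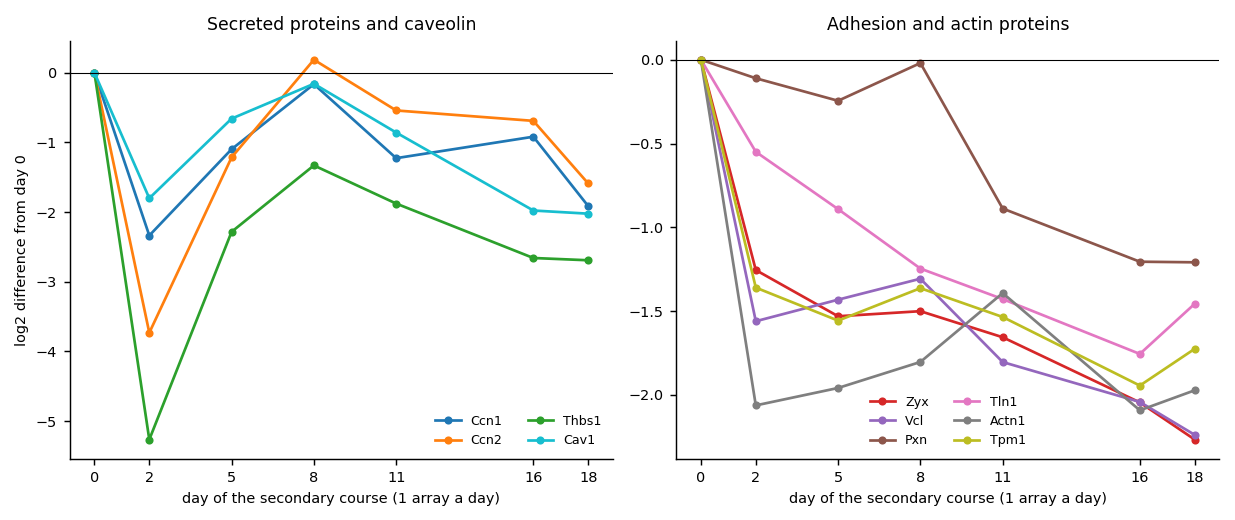
Log2 difference from day 0 on the single array of each day of the secondary course. Left, Ccn1, Ccn2, Thbs1 and Cav1; right, Zyx, Vcl, Pxn, Tln1, Actn1 and Tpm1. The genes on the left dip at day 2 and peak at day 8, and those on the right move less between days 2 and 8, Vcl with a slight rise to day 8 and Pxn near 0 to that day.

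In the Tet-Myc lines, Thbs1, Zyx and Ccn1 were higher after 48 h without doxycycline. These 3 of 10 members were called higher, where 7.38% of the 10154 genes tested were, and none was called lower. The members' median log2 difference was 0.42 against -0.02 over all genes. With only the 4 Tet-Myc arrays in the fit none of the 3 passed (adjusted p from 0.17 to 0.19). Arrays of the same line are paired, but the fit used for these calls had no term for line. The value with line as a block is given where it changes a call.

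Thbs1 read 4.70 in line 1 and 5.03 in line 2 with doxycycline, neither detected, and 7.79 and 7.04 without it. Thbs1 was at least 3.44-fold higher after removal, a bound because its lower side was not above background (fitted log2 difference 2.55, adjusted p = 0.00242).

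Zyx read 12.17 and 11.63 with doxycycline and 13.30 and 13.25 without it (1.38, SE 0.19, 2.60-fold, adjusted p = 0.00601). Ccn1 read 7.65 and 7.88 with doxycycline and 9.16 and 8.87 without it (1.25, SE 0.20, 2.37-fold, adjusted p = 0.00904). The other 2 probes of Ccn1 moved the same way (1.24 and 1.54). Ccn2 started from different levels in the 2 lines and read higher without doxycycline in each, from 11.05 to 13.65 in line 1 and from 13.61 to 14.58 in line 2. Its difference of 1.78 (SE 0.71, adjusted p = 0.131) was called with line as a block (SE 0.36, adjusted p = 0.0202). Without the line 1 or line 2 array of either state, 3 to 5 members were called, the 5 without line 2 with doxycycline adding Ccn2 (3.06, adjusted p = 0.0041) and Vcl (0.84, adjusted p = 0.021).

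The structural genes were uneven. Vcl read 11.13 and 12.13 with doxycycline and 12.05 and 11.90 without it, so the lines went opposite ways. Pxn (0.50, adjusted p = 0.125), Tln1 (0.31), Tpm1 (0.08) and Actn1 (-0.04) did not pass. Cav1 depended on the line: it read 5.83 in line 1 and 9.81 in line 2 with doxycycline, and 5.69 and 7.97 without it (-0.99, SE 1.19, adjusted p = 0.618). The fibroblast marker mean was 5.50 to 5.65 with doxycycline and 6.15 to 6.16 without it. The pluripotency mean was 9.58 to 9.69 with doxycycline and 10.86 to 11.39 without it, and the epithelial mean went from 8.89 to 9.27 in line 1 and from 10.31 to 10.77 in line 2. The part of these lists in the members' changes was not tested.

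On the HDACi arrays few members were called, and the calls came from different comparisons. At 48 h against 0 h, 2 of 10 members were called higher and 0 lower. Over all genes 14.2% were higher and 14.5% lower, so these counts show no shift of the members as a set. Ccn1 was higher at 24 h and at 48 h than at 0 h, and Zyx was higher at 48 h. Thbs1 and Tpm1 fell between 24 and 48 h, and Cav1 dropped out of detection. The arrays share the 0 h controls across the first 2 comparisons. No array at 24 or 48 h was of cells without the inhibitor, so inhibitor and time in culture cannot be told apart. 

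Ccn1 read 8.79 and 8.59 at 0 h, 9.88 and 10.19 at 24 h and 10.29 and 10.58 at 48 h. It was the 1 member of 10 called higher at 24 h (1.34, SE 0.20, 2.54-fold, adjusted p = 0.0241), where 0.965% of genes were. At 48 h its difference from 0 h was 1.74 (SE 0.20, 3.35-fold, adjusted p = 0.00104), and its other probes gave 2.54 and 2.21. From 24 to 48 h it differed by 0.40, which was not called, and its other probes gave 0.83 and 1.01. The 24 h call ended without any one of the 4 arrays (1.19 to 1.50, adjusted p from 0.12 to 0.2).

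Zyx read 11.93 and 12.05 at 0 h, 12.65 and 12.72 at 24 h and 12.85 and 12.88 at 48 h. At 48 h it differed from 0 h by 0.87 (SE 0.19, 1.83-fold, adjusted p = 0.013). That call ended without any one of the 4 arrays (0.82 to 0.93, adjusted p from 0.062 to 0.081). Ccn1 and Zyx were the 2 members called higher at 48 h, against 14.2% of all genes.

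Tpm1 read 12.68 and 12.69 at 0 h, 13.25 and 13.28 at 24 h and 11.99 and 11.95 at 48 h. Thbs1 read 7.25 and 7.69, then 8.28 and 8.34, then 7.04 and 7.21. Both were highest at 24 h and lowest at 48 h. From 24 to 48 h Tpm1 differed by -1.30 (SE 0.23, 2.45-fold, adjusted p = 0.00964) and Thbs1 by -1.19 (SE 0.27, adjusted p = 0.0249), the 2 members called lower there against 8.21% of all genes. At 48 h Tpm1 differed from 0 h by -0.71 (SE 0.23, adjusted p = 0.0527), at the threshold, and it was called under 7 of the alternative settings with every array kept (adjusted p from 0.0062 to 0.0495). The calls from 24 to 48 h ended without any one of their 4 arrays (Tpm1 -1.28 to -1.32 with adjusted p from 0.054 to 0.074, Thbs1 -1.10 to -1.27 with adjusted p from 0.11 to 0.14).

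Ccn2 had the same shape, at 13.98 and 13.91, then 14.74 and 14.88, then 13.63 and 13.47, but none of its differences was called (-1.26 from 24 to 48 h, SE 0.71, adjusted p = 0.284, or 0.0022 with only those 4 arrays). Cav1 read 7.58 and 7.57 at 0 h, 6.78 and 6.71 at 24 h and 4.65 and 4.67 at 48 h, where neither array detected it. It was at least 4.32-fold lower at 48 h than at 0 h on these arrays, with adjusted p = 0.106 in the fit, where the Tet-Myc lines, unlike each other in Cav1, shared the estimate of spread. With only the 0 h and 48 h arrays the adjusted p was 0.000537. Actn1, Vcl, Pxn and Tln1 were not called in any of the 3 comparisons.

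**Figure D5:**
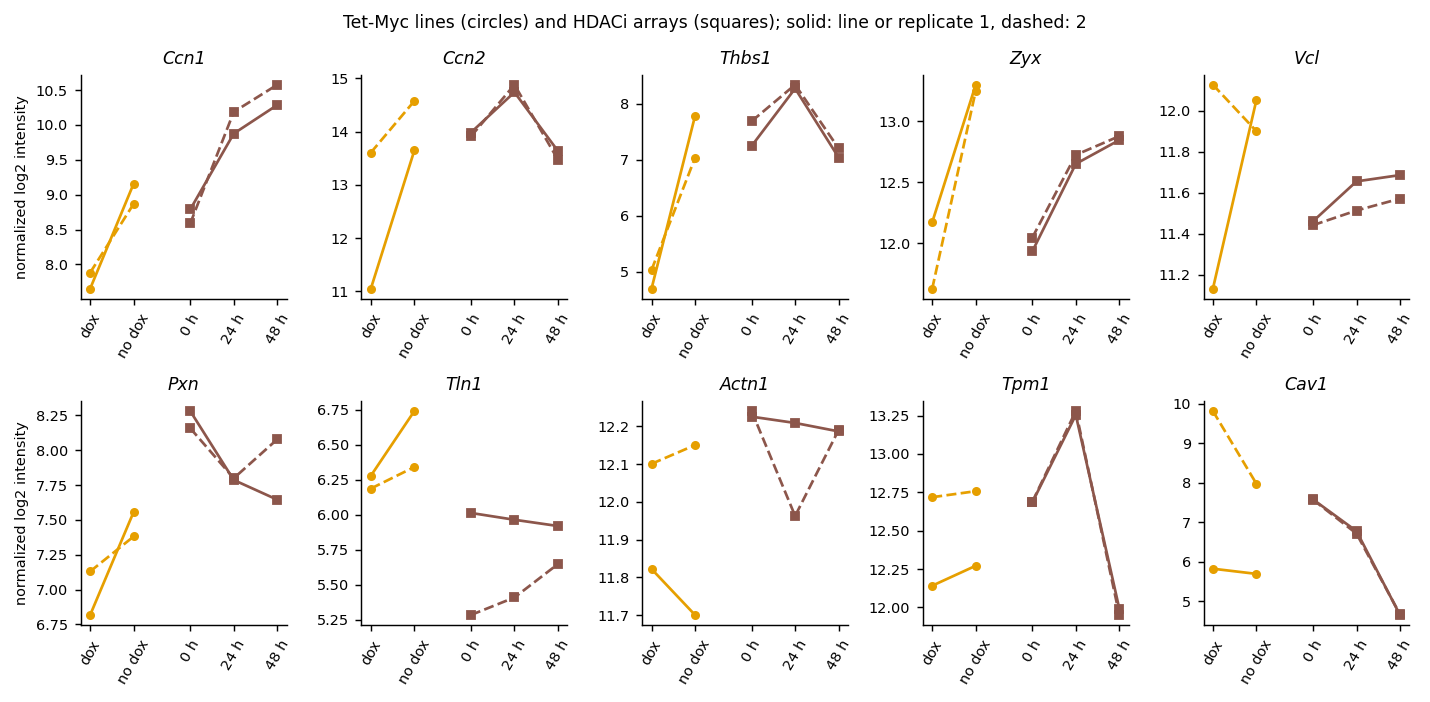
Levels (log2) of the 10 genes with and 48 h without doxycycline in the 2 Tet-Myc lines (circles) and at 0, 24 and 48 h of HDAC inhibitor in F-class cells (squares). Solid lines join the arrays numbered 1 and dashed lines those numbered 2; Ccn1 and Zyx climb in both experiments and Cav1 falls at each HDACi step.

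Marker lists moved over the same hours. The fibroblast mean was 6.34 to 6.63 at 0 h, 6.11 to 6.23 at 24 h and 5.54 to 5.69 at 48 h, and the pluripotency mean 8.13 to 9.77, 9.76 to 9.86 and 11.75 to 11.76. The epithelial mean was 7.54 to 8.32 at 0 h and 10.46 to 10.59 at 48 h. The part of these lists in the members' changes was not tested.

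Other genes of the same pathways were counted from lists drawn up with earlier results known. Between the F- and C-class, 4 of 15 other YAP and TAZ targets tested were lower and 2 higher. Igfbp3, which binds insulin-like growth factors, was lower (-2.26, adjusted p = 4.9e-07), as were Ankrd1 (-1.25, adjusted p = 0.0043) and Nt5e (-2.56, adjusted p = 0.010), while Tgfb2 was higher (0.91, adjusted p = 0.0015). Of 17 other focal adhesion genes 4 were lower, Src, the adhesion kinase, among them (-1.10), and of 16 other actin and SRF genes 5 were lower, with Fhl2 (-1.47) and Cnn2 (-1.37). Of 6 caveola genes 2 were lower, Cavin2 among them (-1.49), and of 7 matricellular genes 1, Tnc (-1.12). None of these 4 lists had a gene called higher, and the background was 10.6% lower and 14.1% higher.

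Of the Hippo pathway list, in the F- against C-class comparison 1 of 12 genes was lower, Tead4 (-0.72, adjusted p = 0.00093), and 1 higher, Sav1 (0.34). Yap1 itself differed by 0.03 (SE 0.07, adjusted p = 0.75) and Wwtr1, which encodes TAZ, by -0.03 (adjusted p = 0.88). Yap1 levels ran from 10.20 to 10.40 in the F-class, 10.01 to 10.45 in the C-class and 10.06 to 10.57 in fibroblasts, overlapping throughout. Against fibroblasts the F-class had lower Wwtr1 (-1.04) and higher Tead4 (3.62) and Wwc1 (3.60), and Yap1 did not pass (-0.04). In that comparison 10 of 15 other YAP and TAZ targets were lower and 2 higher, and 4 of 6 caveola genes were lower and 1 higher. Of 17 focal adhesion genes 12 were lower, of 16 actin and SRF genes 10 and of 7 matricellular genes 7, none higher in these 3 lists. Over all 11046 genes 27.2% were called lower and 3480 genes were called higher. The Hippo list had 4 lower and 3 higher of 12.

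In the Tet-Myc lines 4 of 15 other YAP and TAZ targets were higher without doxycycline and none lower, with Igfbp3 (2.03), Gadd45a (1.56) and Amotl2 (1.45). Of 14 other focal adhesion genes 2 were higher, Palld (1.30) and Bcar1 (0.96). Of 14 actin and SRF genes 1 was higher, Cnn2 (1.56), and of 6 caveola genes 1, Cavin2 (3.31), none lower in any of these lists. No matricellular gene of 6 was called, and of 10 Hippo genes Tead2 was lower (-0.62) and none higher, with Yap1 at -0.13. These counts stand against 7.38% called higher over all 10154 genes, of which 804 were called lower. After 48 h of HDAC inhibitor, the same target list had 3 higher and 5 lower, with Ptpn14 (2.18) on one side and Axl (-2.74) on the other. Of 6 other caveola genes 2 were lower, both not detected at 48 h: Cav2, the partner of Cav1, by at least 1.85-fold (adjusted p = 0.030) and Cavin2 by at least 3.35-fold (adjusted p = 0.041). Of 6 matricellular genes 4 were lower, Tnc (-2.88) and Thbs2 (-2.77) among them, and 1 higher. Actin and SRF genes had 4 higher and 2 lower of 14, focal adhesion genes 2 higher and 1 lower of 14, and Hippo genes 3 higher and 2 lower of 10, with Yap1 not called (0.06). The background of that comparison was 14.5% lower and 14.2% higher.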

How the data were processed

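RNA was purified on RNeasy columns, checked on a Bioanalyser, labelled with biotin and hybridised to Illumina mouse bead arrays, per the labels' protocols. The deposited tables hold, for each probe and array, an unnormalized bead intensity and a detection p-value, per the file headers. The sources used here do not name the scanner or the export software. A second deposited table holds the authors' scaled intensity values, whose ranks matched the unnormalized ones on every array and whose median (143.14) was the same on each. The authors' scaled values were used as an alternative.

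Intensities of all 25697 probes were background-corrected, quantile-normalized and put on a log2 scale with neqc in limma 3.58.1 (R 4.3.3), which took its negative controls from the deposited detection p-values and an offset of 16. Platform annotation gave 1 gene for 23978 probes and none for 1719. Genes with a detection p-value under 0.05 on 2 or more arrays were fitted with lmFit and eBayes in 2 fits, one of fibroblast, clone, iPSC and ESC arrays (11046 genes) and one of Tet-Myc and HDACi arrays (10154 genes). All 10 members entered both. P-values (two-sided) were Benjamini-Hochberg adjusted over all genes of a fit, and 0.05 was the threshold. Folds against a group not detected on any array are bounds, against the lowest detected signal. Single-array comparisons have no test, and 2-fold was counted. The fit was tested on simulated data with known changes. The number of arrays limits the precision.

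The members and the pathway and marker lists were chosen with earlier results of these data known. Named genes are all 10 members and, from each pathway list, up to 4 called genes with the largest difference plus paralogs and partners of members. Tet-Myc lines 1 and 2 give the same line in both states and deviated together (r = 0.503). The main fit had no term for line, and a fit with line as a block was an alternative. HDACi arrays share only a number (r = 0.259 between 0 and 24 h, 0.0914 between 0 and 48 h, 0.0779 between 24 and 48 h). Of all 1275 pairs of arrays, 0 held identical values. Alternatives were quantile normalization without background correction, the authors' scaled values, the mean of all probes of a gene, no detection filter, detection on 17 (first fit) or 5 (second fit) arrays, an offset of 50, only the groups compared, number format as a term, the replicate block, and each array of a group of up to 6 left out.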

Additional observations from a re-analysis of the deposited data

Results flagged for a closer look

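Vcl moved in opposite directions in the 2 Tet-Myc lines 48 h after doxycycline was removed. It changed by 0.92 on the log2 scale in line 1 and by -0.23 in line 2, with 1 array a state in each line. Actn1 also had opposite signs, -0.12 in line 1 and 0.05 in line 2. These were picked out because the lines went opposite ways, and the difference between the lines was not tested for either gene.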

How the results depend on the processing

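Of 1796 member values under an alternative, 1638 kept their direction and their side of the threshold, 80 lost a call, 42 gained one and 36, none of them called, changed sign. Counts of called members moved by over 1.5 times as follows. With only the 2 groups compared they were 1 for iPSC and 2 for ESC against fibroblasts, 0 for iPSC against ESC, 0 for Tet-Myc, and 6, 4 and 4 for HDACi at 24 against 0 h, 48 against 0 h and 48 against 24 h. With number format as a term they were 0 for C-class against ESC and 0 for iPSC against ESC, and with the mean of all probes 0 for C-class against ESC. The replicate block gave 4 for HDACi at 48 against 0 h, with Cav1 (adjusted p = 0.0024) and Tpm1 (adjusted p = 0.00704, also called under 6 other settings) added, and 4 for Tet-Myc, where it added Ccn2. Leaving out 1 array at a time, called members numbered 4 to 6 (F- against C-class), 8 to 10 and 6 to 9 (F- and C-class against fibroblasts), 0 to 2 and 3 to 8 (iPSC and ESC against fibroblasts), 1 to 6 and 0 to 1 (F- and C-class against ESC), 7 to 9 and 2 to 3 (F- and C-class against iPSC), 0 (iPSC against ESC), 3 to 5 (Tet-Myc), 0, 1 and 0 (HDACi at 24 against 0 h, 48 against 0 h and 48 against 24 h). C-class clones were not left out one by one. The share of all genes called under each of these settings is not given here. The counts therefore show only how the calls depend on the setting. Within the 16 C-class clones above the widest gap in Ccn2, chosen after seeing the data, Tln1 passed (r = 0.57).

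Sign changes were as follows. Number format as a term gave Ccn1 0.049 (iPSC minus fibroblast) and -0.078 (C-class minus ESC) and Pxn 0.083 and 0.23 (F- and C-class minus iPSC). The mean of all probes gave Pxn 0.032 (iPSC minus ESC) and -0.00038 (HDACi 48 minus 24 h). Leaving out 1 array at a time, Ccn1 ran from -0.57 to 0.17 (iPSC minus fibroblast) and from -0.16 to 0.086 (F-class minus ESC), Ccn2 from -0.41 to 0.18 and Pxn from -0.49 to 0.0078 (ESC minus fibroblast). In C-class minus ESC, where ESC 1 or 2 was left out, Thbs1 ran from -1.04 to 0.31, Zyx from -0.50 to 0.49, Vcl from -0.45 to 0.25, Tln1 from -0.0041 to 0.17 and Cav1 from -1.55 to 0.61. In iPSC minus ESC, Zyx ran from -0.11 to 0.88 and Cav1 from -0.51 to 1.65. In Tet-Myc, Actn1 ran from -0.26 to 0.19, Cav1 from -2.98 to 1.01, Tpm1 from -0.20 to 0.37 and Vcl from -0.15 to 0.84. In HDACi, Tln1 ran from -0.33 to 0.40 (24 minus 0 h), from -0.23 to 0.50 (48 minus 0 h) and from -0.18 to 0.38 (48 minus 24 h), and in the last Pxn ran from -0.15 to 0.29, Vcl from -0.027 to 0.12 and Actn1 from -0.020 to 0.23. The cause of these changes was not tested. Signal over background limits Tln1, detected in 1 of 6 F-class clones.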
